A study of Mus musculus with 46 samples.

Results

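The fibrillar collagens described here are 6 genes, Col1a1, Col1a2, Col3a1, Col5a1, Col5a2 and Col11a1. They were measured by 13 probe sets, the groups of short probes that stand for a transcript on an Affymetrix array. The members were found as all probe sets that the platform annotation assigns to 1 of these symbols alone, out of 20380 probe sets with a single symbol for 12393 genes. All 13 probe sets passed the filter on low values, which tested a probe set only if 3 or more arrays placed it above their own median. The rule uses the annotation and no measured value. The probe set of highest mean over the 46 arrays stands for each gene, and the remaining 7 are given beside it.

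The arrays (MOE430A) held total RNA of the left ventricle from male mice aged 15 to 20 weeks of the strains C57BL/6J, written C57, and MRL/MpJ, written MRL. Hearts came from unoperated animals (day 0) or from animals killed 1 or 5 days after the left coronary artery was tied off. A biopsy punch separated the infarct with its border from the noninfarct remainder of the ventricle, and at day 0 the infarct samples are the anterior-apical tissue at the same place. Groups had 4 arrays, and the C57 day 0 groups had 3. There were no sham-operated animals among the samples, so surgery and infarction cannot be told apart in any comparison with day 0. The labels call the samples biological replicates, and which pieces of tissue came from the same heart is not given. The tissue was not sorted: more cells of a type and more RNA per cell cannot be told apart.

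Fibrillar collagens are triple helices that assemble into the banded fibres that give tissue its tensile strength. Type I collagen, built from the products of Col1a1 and Col1a2, and type III collagen, the product of Col3a1, make up most of the fibrillar collagen of the heart. Types V and XI, with chains from Col5a1, Col5a2 and Col11a1, start fibrils and limit their width. After a myocardial infarction fibroblasts deposit these collagens as scar in place of lost muscle.

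The members lie on 5 chromosomes. Col3a1 and Col5a2 are both on chromosome 1, where Col5a2 is the next gene record after Col3a1 in RefSeq, and the others are on chromosomes 11 (Col1a1), 6 (Col1a2), 2 (Col5a1) and 3 (Col11a1). RefSeq promoter sequences (build GRCm38.p6) matched 4 of the 6 members, Col1a2, Col3a1, Col5a1 and Col11a1. The 250 bases before the annotated start are printed for Col1a2 and Col3a1, both called higher at day 5, because their composition differs. Capitals mark matches, on either strand, to 4 motifs. These are CCAAT, the TATA box as TATAAA, the GC box as GGGCGG and the AP-1 motif as TGANTCA, whose matches do not overlap. The Col1a2 window is chr6:4505368-4505617 and the Col3a1 window chr1:45311288-45311537, both on the plus strand and written 5′ to 3′.
Col1a2: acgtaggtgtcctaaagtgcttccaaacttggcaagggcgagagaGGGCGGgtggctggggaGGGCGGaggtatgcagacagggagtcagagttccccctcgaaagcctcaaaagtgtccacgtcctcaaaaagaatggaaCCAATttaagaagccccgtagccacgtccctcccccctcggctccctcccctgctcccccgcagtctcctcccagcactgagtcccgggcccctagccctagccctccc
Col3a1: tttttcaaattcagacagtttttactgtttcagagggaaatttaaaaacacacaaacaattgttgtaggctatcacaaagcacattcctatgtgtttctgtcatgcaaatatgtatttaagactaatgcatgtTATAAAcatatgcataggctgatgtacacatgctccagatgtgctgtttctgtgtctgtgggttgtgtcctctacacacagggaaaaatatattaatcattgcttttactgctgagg

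The Col1a2 window was 62% G and C and the Col3a1 window 35.2%, on either side of the median of 52.4% over 32851 mouse promoter windows of this length. The Col5a1 (76.4%) and Col11a1 (62.4%) windows were also above that median. GGGCGG was found 2 times in each of the Col1a2, Col5a1 and Col11a1 windows and occurs in 32.7% of all windows. CCAAT was found once in those of Col1a2 and Col11a1 (33.8% of all windows), and TATAAA once in that of Col3a1 (12.4%). TGANTCA, present in 6.75% of all windows, had 0 matches in the 4. No motif of the 4 was shared by all 4 members, and a match of letters does not show a working site.

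**Figure D1:**
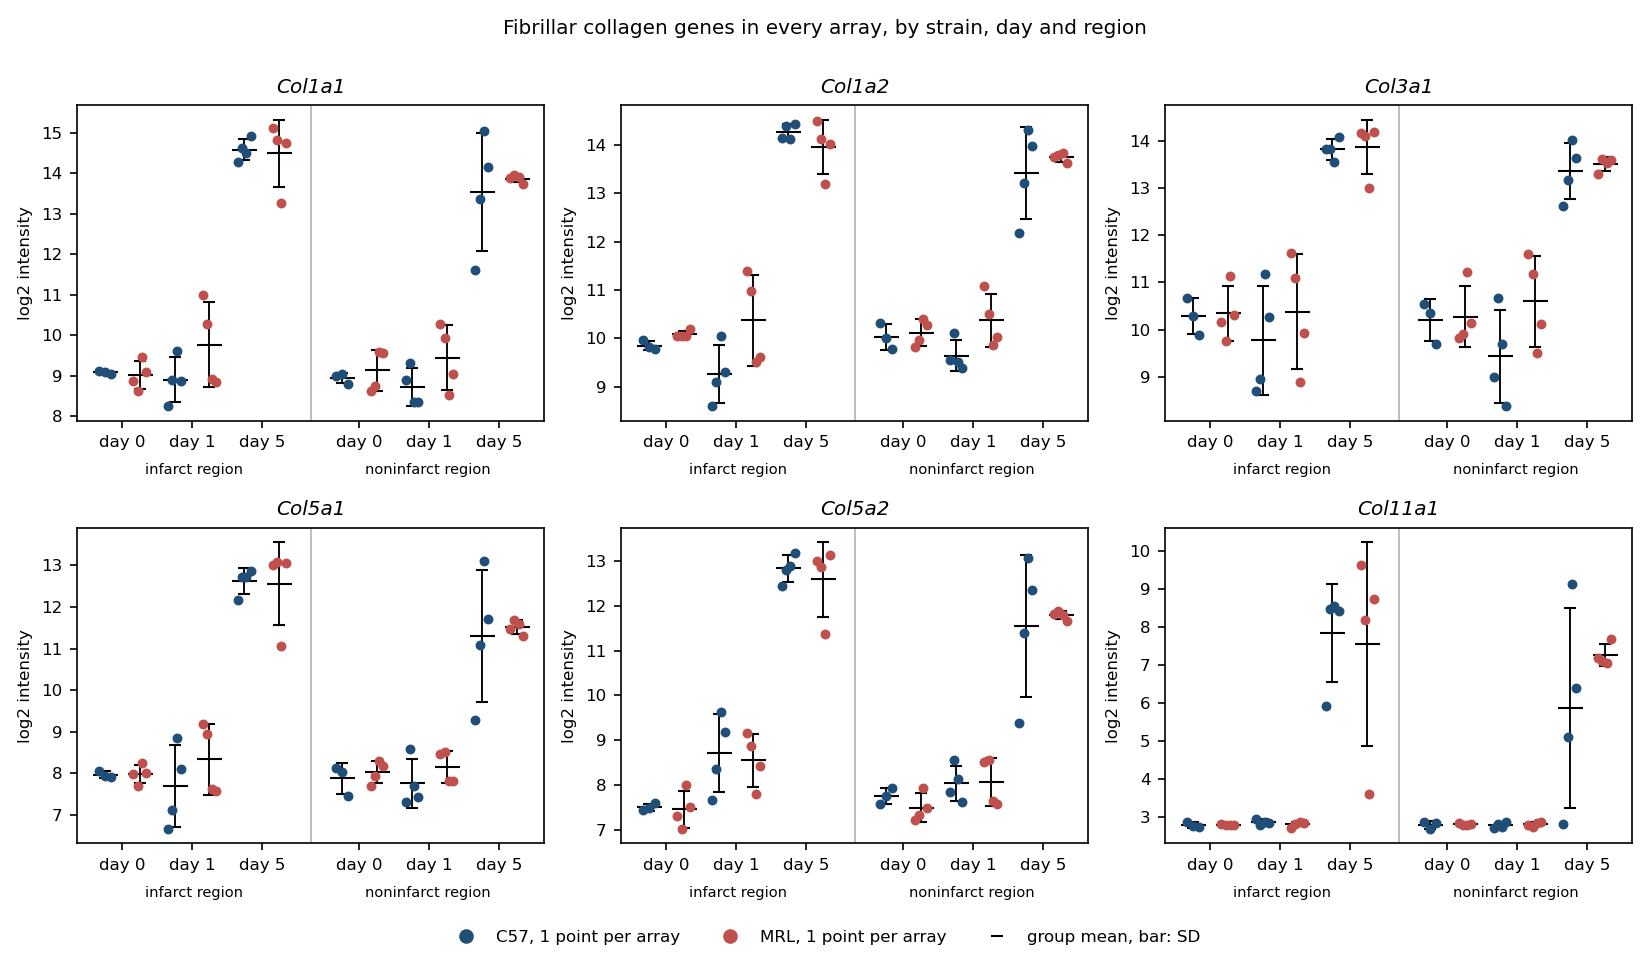
Log2 intensity (vertical axis) of the representative probe set of each fibrillar collagen gene in every array, by day and region (horizontal axis). Blue points are C57 arrays, red points MRL arrays, and black bars the group mean and SD. In all 6 genes the day 0 and day 1 arrays lie low and most day 5 arrays lie high, with a wide spread in C57 noninfarct tissue at day 5 (SD from 0.60 for Col3a1 to 2.64 for Col11a1).

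Values are log2 of the deposited intensity. A change is a difference of group means on that scale, given as ± its standard error (SE), and a gene was called changed with an adjusted p under 0.05 in limma over all tested probe sets. Arrays are grouped by their labels throughout. In 2 of the day 5 libraries the marker sums below lay outside the range of the rest of their groups. These are called the libraries that stood apart. They were picked after seeing the data, and other arrays differed from their groups too. In the library labelled C57 day 5 noninfarct replicate 3, the summed intensity of 8 cardiomyocyte markers was 85266, against 144530 to 173562 in the other 3 arrays. Its sum of 7 macrophage markers was 7066, against 831 to 2570. In the library labelled MRL day 5 infarct replicate 3 the cardiomyocyte sum was 162577, against 53675 to 84314, and the macrophage sum 1277, against 7419 to 10240. The C57 library lay within the range of C57 day 5 infarct replicates 2 to 4 in both sums (74027 to 86867 and 5863 to 7865). The MRL library lay beyond the MRL day 5 noninfarct arrays, above their 132836 to 151664 and below their 1845 to 2795. The mean of the 6 collagens was 13.11 in the C57 library, against 9.65 to 12.04 in its group. It was 10.92 in the MRL library, against 12.87 to 13.24. Across strains, the MRL library lay within the range of the other 3 C57 day 5 noninfarct arrays in both sums and in the collagen mean. The C57 library lay within the other 3 MRL day 5 infarct arrays in the collagen mean, but outside them in both sums. The array left out of the C57 day 5 infarct range was replicate 1, which also differed from its group. It had a cardiomyocyte sum of 148402, a macrophage sum of 3057 and a collagen mean of 12.13, against 12.73 to 12.98. The calls at day 5 are given with and without the libraries that stood apart, and the counts also without all 3 libraries. Both alternatives were chosen after seeing the data. All 8 cardiomyocyte markers had means above the array medians (4.22 to 4.48) in every group.

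At day 0 no collagen gene was called between the 2 strains or between the 2 regions. Col1a1, the gene of the more abundant type I chain, read 9.12, 9.09 and 9.05 in the C57 infarct-site arrays and 8.88, 8.62, 9.46 and 9.08 in those of MRL. The C57 values lay inside the MRL range. Col3a1 read 10.66, 10.28 and 9.89 in C57 and 10.16, 9.75, 11.13 and 10.31 in MRL, again overlapping. Col1a2 did not overlap there, with 9.78 to 9.96 in C57 and 10.04 to 10.19 in MRL. Its difference of 0.23 ± 0.39 was not called. Of the 6 genes 0 differed between strains in the infarct region (1.07% of all 12834 tested probe sets were called in either direction) and 0 in the noninfarct region (1.8% of 12344). The differences (MRL minus C57) ran from -0.08 to 0.23 and from -0.26 to 0.19, and 0 of 6 had an unadjusted p under 0.05 in either. The intervals were wide enough to hold moderate differences: for Col1a1 in the infarct region the 95% confidence interval was -1.02 to 0.87. Between regions 0 of 6 differed at day 0 in C57 or in MRL, with 0% and 0.0304% of 13138 probe sets called.

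One day after ligation no fibrillar collagen had passed the test. In infarct tissue 0 of 6 genes were called in C57 and 0 of 6 in MRL, while 15.5% and 21.5% of all tested probe sets were. In noninfarct tissue the counts were 0 of 6 in both strains, beside 3.99% and 0.98%. With an unadjusted p under 0.05 there was 1 gene in the infarct tissue of each strain and 0 in noninfarct tissue. The median change of the 6 was -0.23 in C57 infarct and 0.32 in MRL infarct tissue, where the medians of all probe sets were 0.01 and 0. In noninfarct tissue it was -0.17 and 0.28, beside -0.01 and 0.01.

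The gene nearest to a call was Col5a2, which encodes a chain of the fibril-starting type V collagen. In C57 infarct tissue it read 7.67, 8.36, 9.63 and 9.19 at day 1, against 7.44, 7.48 and 7.59 at day 0. All 4 day 1 arrays lay above all 3 day 0 arrays, as was the case for 14.3% of all probe sets. The change was 1.21 ± 0.43, a 2.31-fold difference with an adjusted p of 0.061. In MRL it read 9.15, 8.86, 7.79 and 8.41, against 7.31, 7.01, 7.99 and 7.50 at day 0, so that 1 day 1 array lay below the highest day 0 array. The change was 1.10 ± 0.40 with an adjusted p of 0.053. Without the libraries that stood apart, which are day 5 arrays and enter only through the shared spread, these became calls with adjusted p 0.024 and 0.021. The second Col5a2 probe set changed by 0.95 in C57 and 0.68 in MRL and was not called.

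By their representative probe sets the type I and III genes moved less than Col5a2 at day 1 in infarct tissue. The second Col3a1 probe set changed by 1.38 in C57 and 1.45 in MRL. The second probe set of Col1a1 changed by 0.64 and 1.16, and that of Col1a2 by 0.35 and 0.97, and none of these was called. Col3a1 read 8.69, 8.95, 11.18 and 10.26 in C57 infarct tissue and 11.62, 11.09, 8.88 and 9.93 in MRL. Both sets straddle the day 0 range, and the changes were -0.51 ± 0.57 and 0.04 ± 0.52. Col1a2, the gene of the second type I chain, read 8.59, 9.09, 10.05 and 9.30 in C57 and 11.39, 10.97, 9.51 and 9.62 in MRL. It was 1.12 ± 0.36 higher in MRL than in C57 at day 1, with overlapping arrays and a limma adjusted p of 0.19. Without MRL day 1 infarct replicate 3 that difference was 1.40, with an adjusted p of 0.046. Replicates 1 and 2 of MRL day 1 were the higher arrays of Col1a1, Col1a2, Col3a1 and Col5a1 in both regions.

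Col11a1, the type XI chain gene, had values of 2.68 to 2.96 in all 30 day 0 and day 1 arrays. These lay below the median of every array, so a change measured from them has no exact size.

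By day 5 all 6 fibrillar collagens had risen in both strains and both regions. In infarct tissue 6 of 6 genes were called higher in C57, where 23.4% of all probe sets were, and 6 of 6 in MRL, beside 23.6%. In noninfarct tissue 6 of 6 were called in C57 beside 11.6%, and 6 of 6 in MRL beside 16%. Of these 6, Col11a1 passed the filter through day 5 arrays alone, so its rises from day 0 or day 1 are a description. The median change of the 6 was 4.86 in C57 infarct and 4.67 in MRL infarct tissue, and 3.41 and 3.97 in noninfarct tissue, against medians of all probe sets between -0.05 and 0. The smallest member's change in infarct tissue exceeded 98.1% of all tested probe sets in C57 and 98.3% in MRL, and in noninfarct tissue 99.3% and 99.1%. The day 1 and day 5 comparisons of a strain and region share their day 0 arrays. A sign of RNA quality, the log2 signal of the 3′ Gapdh control minus that of the 5′ one, moved with the day in infarct tissue. It ranged from -0.22 to -0.14 at day 0 and from -0.08 to 0.73 at day 5 in C57, and from -0.28 to -0.18 and -0.13 to 0 in MRL. In noninfarct tissue the ranges overlapped, at -0.24 to -0.06 and -0.13 to 0.05 in C57 and -0.34 to -0.08 and -0.27 to -0.09 in MRL. Its part in the collagen changes was not tested.

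Col1a1 rose in both strains and both regions. In C57 infarct tissue it read 14.28, 14.62, 14.50 and 14.91 at day 5, and in MRL 15.11, 14.82, 13.26 and 14.75. The lowest of these arrays, the MRL library that stood apart, was still above the highest day 0 and day 1 array of any group (10.99). The changes from day 0 were 5.49 ± 0.45 in C57, a 45.0-fold increase (adjusted p = 3.2e-08), and 5.48 ± 0.42 in MRL, 44.5-fold (adjusted p = 1.2e-08). In noninfarct tissue the 4 MRL arrays were close together at 13.87, 13.94, 13.89 and 13.74, while the C57 arrays read 11.61, 13.37, 15.03 and 14.16. The rises there were 4.61 ± 0.53 in C57 (24.4-fold) and 4.73 ± 0.49 in MRL (26.6-fold). Without the libraries that stood apart the Col1a1 rise was 5.88 ± 0.39 in MRL infarct and 4.11 ± 0.49 in C57 noninfarct tissue, and without C57 day 5 noninfarct replicate 1 the latter was 5.25.

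Col1a2 rose with it. Its day 5 infarct values were 14.14, 14.39, 14.13 and 14.43 in C57 and 14.51, 14.13, 13.19 and 14.03 in MRL, against 9.78 to 9.96 and 10.04 to 10.19 at day 0. The groups did not overlap, and the changes were 4.42 ± 0.39 (21.4-fold) and 3.88 ± 0.36 (14.7-fold). In noninfarct tissue the changes were 3.39 ± 0.36 and 3.63 ± 0.33. Without the libraries that stood apart those of MRL infarct and C57 noninfarct tissue were 4.14 ± 0.36 and 3.10 ± 0.34.

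Col3a1, the type III collagen gene, rose by the smallest amount among the representative probe sets of infarct tissue. It read 13.82, 13.83, 13.54 and 14.07 in C57 and 14.16, 14.11, 13.00 and 14.19 in MRL, all above the day 0 arrays. The changes of 3.54 ± 0.57 and 3.53 ± 0.52 both correspond to 11.6-fold (adjusted p = 9.1e-05 and 3e-05). In noninfarct tissue they were 3.15 ± 0.50 and 3.24 ± 0.46. Without the libraries that stood apart the MRL infarct and C57 noninfarct changes were 3.82 ± 0.55 and 2.93 ± 0.52.

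The type V genes followed the same course. Col5a1 read 12.17, 12.72, 12.73 and 12.87 in C57 infarct tissue at day 5 and 13.02, 13.09, 11.06 and 13.07 in MRL. Its day 0 arrays ranged from 7.90 to 8.04 and from 7.69 to 8.24, far below. It rose by 4.66 ± 0.50 and 4.58 ± 0.46, or 25.3-fold and 24.0-fold. Col5a2 read 12.45, 12.81, 12.90 and 13.18 in C57 and 12.99, 12.87, 11.36 and 13.14 in MRL. It rose by 5.33 ± 0.43 and 5.13 ± 0.40, or 40.3-fold and 35.1-fold. In noninfarct tissue Col5a1 rose by 3.43 ± 0.53 in C57 and 3.50 ± 0.49 in MRL, and Col5a2 by 3.80 ± 0.52 and 4.30 ± 0.48. The C57 noninfarct rises depended on single arrays: that of Col5a1 was 2.83 ± 0.42 without replicate 3 and 4.10 without replicate 1, and that of Col5a2 was 3.29 ± 0.47 and 4.52. Without MRL day 5 infarct replicate 3 the MRL infarct rises were 5.08 ± 0.41 and 5.54 ± 0.36.

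Col11a1, by its representative probe set, went from below the array medians to above them in most day 5 arrays. In C57 infarct tissue it read 5.93, 8.47, 8.55 and 8.44, and in MRL 9.64, 8.18, 3.61 and 8.75. The MRL library at 3.61 was the one that stood apart. It too exceeded every day 0 array, but it was still below its array median. The changes were 5.05 ± 0.87 in C57 (adjusted p = 0.00019) and 4.75 ± 0.81 in MRL (adjusted p = 0.00011). Without C57 replicate 1 the C57 change was 5.69, and in MRL it was 6.06 ± 0.43 without replicate 3 and 4.05 without replicate 1. After 32 was added to each intensity, which damps changes from low values, they were 2.81 and 2.80 and remained called. In noninfarct tissue the MRL arrays read 7.18, 7.12, 7.06 and 7.68 and the C57 arrays 2.82, 5.11, 9.14 and 6.39. The lowest C57 array was inside the day 0 range and below its array median. The C57 rise of 3.08 ± 0.78 had a limma adjusted p of 0.012, while the MRL rise was 4.45 ± 0.72. Without the C57 library that stood apart the C57 rise was 1.98 ± 0.49 with an adjusted p of 0.014. Without replicate 1 it was 4.09.

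From day 1 to day 5, 6 of 6 genes rose in C57 infarct tissue (18.5% of all probe sets were called higher), MRL infarct tissue (16.3%), C57 noninfarct tissue (11.9%) and MRL noninfarct tissue (9.48%). The rises between those days ran from 4.04 to 5.68 in C57 infarct, from 3.49 to 4.73 in MRL infarct, from 3.08 to 4.82 in C57 noninfarct and from 2.90 to 4.46 in MRL noninfarct tissue. Without the libraries that stood apart, and without all 3 libraries, all 48 rises from day 0 or day 1 were still called. In the fit without the 2 libraries 25%, 26.6%, 6.88% and 19.5% of all probe sets rose from day 0, in the order C57 infarct, MRL infarct, C57 noninfarct and MRL noninfarct tissue, and 20.4%, 21.1%, 7.89% and 12.9% from day 1.

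**Figure D2:**
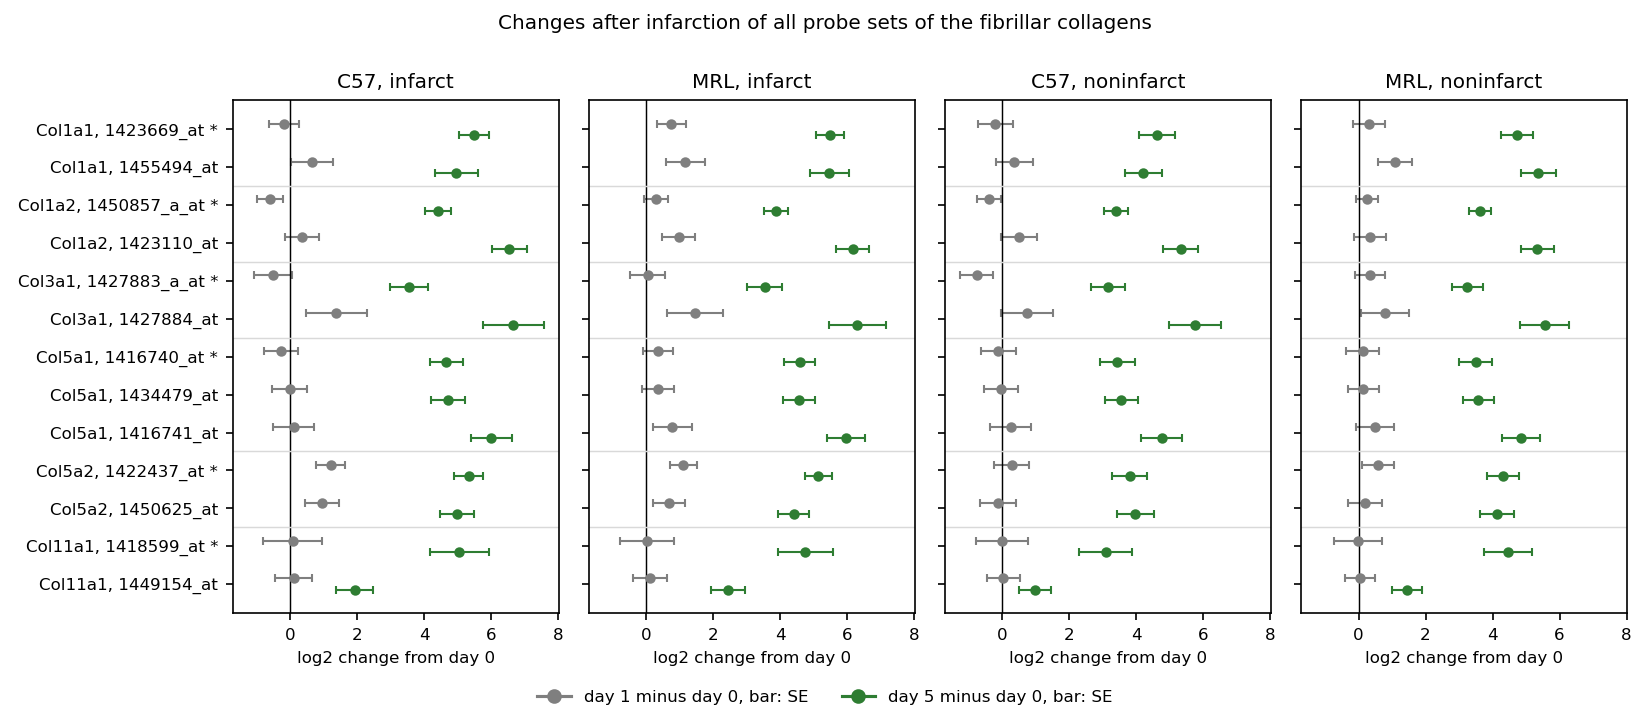
Change from day 0 on the log2 scale (horizontal axis, bars are SE) of all 13 probe sets (vertical axis, an asterisk marks the representative one) in each strain and region, grey for day 1 and green for day 5. Day 1 changes lie near 0, from -0.77 to 1.45, and day 5 changes from 0.97 to 6.66, with unequal changes for the probe sets of Col1a2, Col3a1 and Col11a1.

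The 13 probe sets gave the same direction at day 5, but not the same size. Both Col11a1 probe sets passed the filter through day 5 arrays alone, so their calls at day 5 are a description. In infarct tissue 13 of 13 were called higher in both strains, and in 13 of 13 the day 5 and day 0 arrays did not overlap, as for 25.9% of all probe sets in C57 and 21.1% in MRL. In noninfarct tissue 12 of 13 were called in C57, all but the second Col11a1 probe set (0.97 ± 0.48, adjusted p = 0.15), and 13 of 13 in MRL. For Col1a1 the pair of probe sets differed little, with 5.49 and 4.96 in C57 infarct tissue. For Col3a1 the second probe set rose by 6.66 against 3.54 of the representative one, for Col1a2 by 6.54 against 4.42, and for Col11a1 by 1.92 against 5.05. In MRL the same pairs gave 6.30 and 3.53, 6.16 and 3.88, and 2.43 and 4.75. The order of the genes by size of change therefore depended on the probe set.

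Pairs of genes, the chains of type I or type V collagen and types I and III, were compared within each array as a difference of log2 values. Col1a1 minus Col1a2 rose from -0.77 ± 0.07 (SD, n = 3) at day 0 to 0.31 ± 0.15 (SD, n = 4) at day 5 in C57 infarct tissue, and from -1.08 ± 0.36 (SD, n = 4) to 0.52 ± 0.31 (SD, n = 4) in MRL. Col1a1 minus Col3a1 shifted by 1.96 and 1.95, and Col5a1 minus Col5a2 by -0.67 and -0.55. In these 6 comparisons the arrays of the groups did not overlap. Across 54 such comparisons 18 had an unadjusted exact permutation p under 0.05 and 0 an adjusted one, the smallest adjusted p being 0.086. With 4 against 4 arrays the exact two-sided test cannot go below 0.029, and with 4 against 3 not below 0.057. With the mean of all probe sets of a gene in place of 1, the Col1a1 minus Col1a2 shift in C57 infarct tissue was -0.26 and that in MRL 0.45, and the Col1a1 minus Col3a1 shifts were 0.13 and 0.55. The Col5a1 minus Col5a2 shifts were then -0.03 in C57 and 0.26 in MRL. The unequal rises of the type I, III and V genes thus rested on the choice of probe set.

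The strains were not separated at day 5 with all arrays in the fit. In infarct tissue 0 of 6 genes were called between MRL and C57 (0.686% of all probe sets were), and 0 of 6 in noninfarct tissue (1.25%). At day 1 the counts were 0 of 6 in infarct tissue (0.997%) and 0 of 6 in noninfarct tissue (2.77%). At day 5, 0 of 6 had an unadjusted p under 0.05 in either region, and at day 1 there was 1 in infarct tissue (Col1a2) and 2 in noninfarct tissue (Col1a2 and Col3a1), all higher in MRL. In infarct tissue at day 5 the differences (MRL minus C57) ran from -0.31 for Col1a2 to 0.05 for Col3a1. For Col1a1 the difference was -0.09 with a 95% confidence interval of -0.97 to 0.78, and for Col3a1 0.05 with an interval of -1.04 to 1.15. Differences of up to about that size in either direction were therefore not excluded by these arrays.

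The change from day 0 was also compared between strains directly. Of the 6 genes 0 were called at day 1 and 0 at day 5 in infarct tissue, with 0.0468% and 0.156% of all probe sets called, and 0 at either day in noninfarct tissue (0.0081% each). In all 4 tests of the difference of changes 0 of 6 had an unadjusted p under 0.05. At day 5 in infarct tissue the difference was -0.02 for Col1a1 (95% confidence interval -1.30 to 1.27), -0.54 for Col1a2 (-1.63 to 0.56) and -0.01 for Col3a1 (-1.61 to 1.60). The largest difference of changes at day 5 was that of Col11a1 in noninfarct tissue, at 1.38 ± 1.06 (adjusted p = 1).

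Col11a1 in noninfarct tissue at day 5 was the strain difference that the library standing apart decided. With all arrays it was 1.40 ± 0.72 higher in MRL (adjusted p = 0.55). Without C57 day 5 noninfarct replicate 3 the C57 arrays were 2.82, 5.11 and 6.39, all below the lowest MRL array of 7.06. The array left out was the highest of its group, so leaving it out had to widen the difference. The difference was then 2.49 ± 0.46 with an adjusted p of 0.0019, where 2.36% of all probe sets were called higher in MRL. The difference of the changes from day 0 was 2.47 ± 0.64 and did not pass the test (adjusted p = 0.41).

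**Figure D3:**
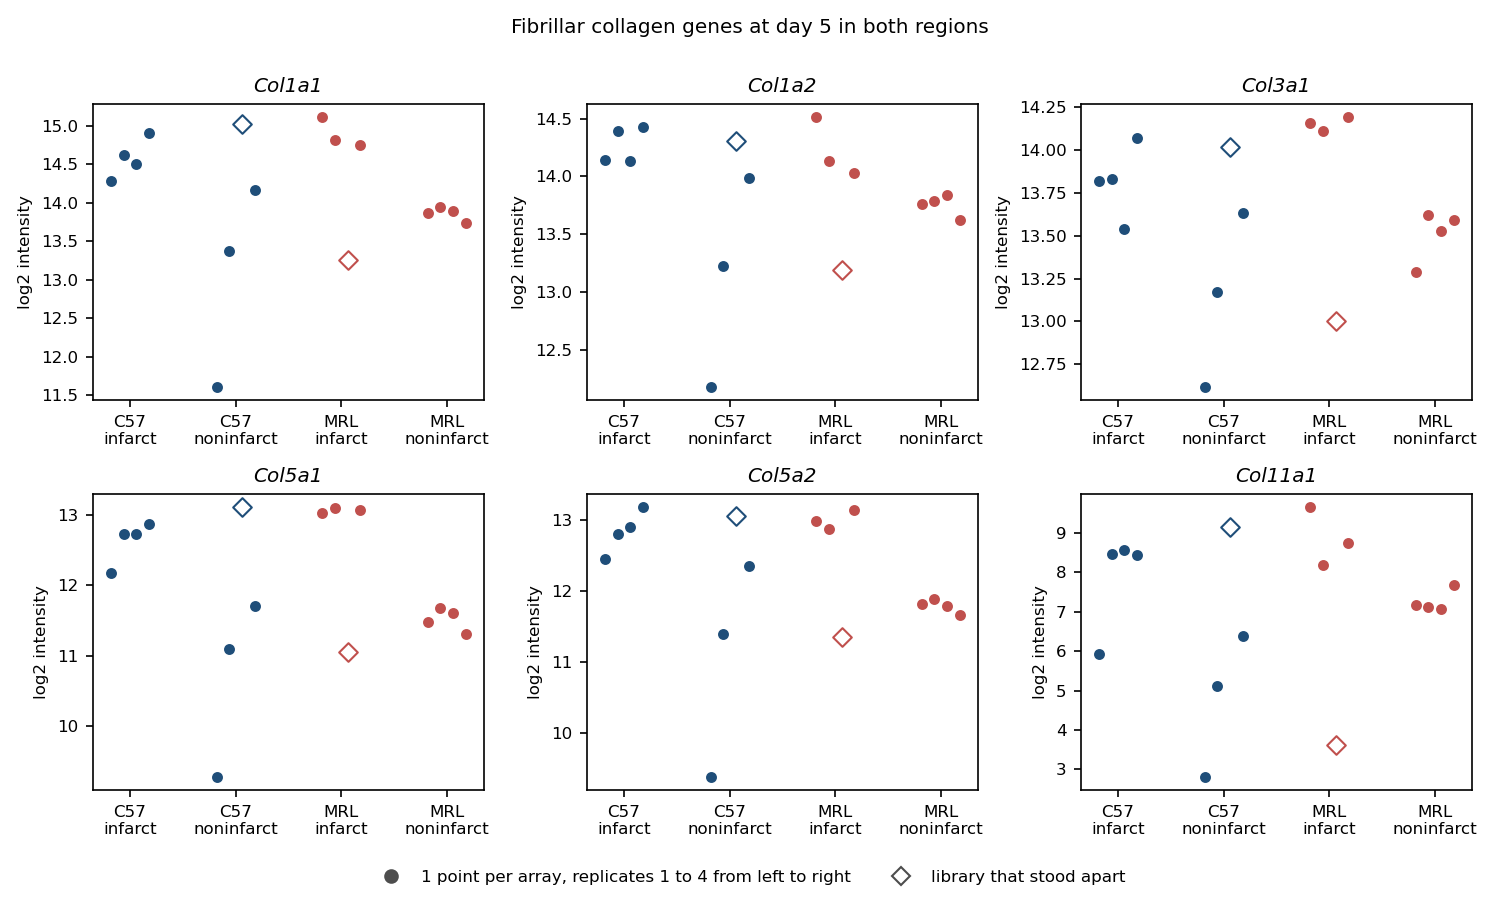
Log2 intensity (vertical axis) of each fibrillar collagen gene in the 16 day 5 arrays, by strain and region (horizontal axis). Open diamonds are the libraries that stood apart: for Col1a1 the C57 noninfarct one reads 15.03, above its 4 infarct arrays, and the MRL infarct one 13.26, below its 4 noninfarct arrays.

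At day 5 the infarct tissue of C57 had higher means of all 6 genes than the noninfarct tissue, but with all arrays none passed the test in the fit of 1 mean per group. The differences ran from 0.46 for Col3a1 to 1.98 for Col11a1 in C57 and from 0.21 for Col1a2 to 1.04 for Col5a1 in MRL. Called were 0 of 6 in C57 and 0 of 6 in MRL, beside 5.05% and 4.48% of all probe sets called higher in infarct tissue. With the replicate number as a block 5 genes were called in C57 and none in MRL (19.5% and 21.2% of all probe sets in either direction). The labels do not tie those numbers to hearts. In the fit of 1 mean per group an unadjusted limma p under 0.05 was reached by 5 genes in C57 and 1 in MRL. The share of all probe sets at that p is not given, here or for the other such counts. Those counts therefore have no background beside them. At day 1 0 of 6 differed between regions in C57 and 0 of 6 in MRL (7.31% and 9.28% of probe sets were called in either direction).

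Without the libraries that stood apart 5 of 6 genes were higher in infarct tissue in C57, all but Col3a1, and 3 of 6 in MRL. Those libraries were picked after seeing the data, the C57 one with the highest and the MRL one with the lowest collagens of its group. Leaving them out therefore had to widen these differences, so the calls are a description. In the same fit 17.6% and 16.9% of all probe sets were called higher. In C57 the differences were 1.53 ± 0.44 for Col1a1, 1.14 ± 0.35 for Col1a2, 1.93 ± 0.42 for Col5a1, 1.79 ± 0.42 for Col5a2 and 3.07 ± 0.46 for Col11a1 (limma adjusted p from 1e-05 to 0.012). In MRL they were 1.54 ± 0.42 for Col5a1, 1.21 ± 0.42 for Col5a2 and 1.59 ± 0.46 for Col11a1 (limma adjusted p from 0.0041 to 0.022). Col3a1 differed by 0.68 ± 0.54 and 0.65 ± 0.54 and passed in neither strain. Without C57 day 5 noninfarct replicate 3 alone the C57 count was 5. Without C57 day 5 infarct replicate 1, whose Col11a1 value of 5.93 was below the 8.44 to 8.55 of its group, it was 3. Without all 3 libraries the counts were again 5 in C57 and 3 in MRL, where 22.1% and 17.6% of all probe sets were called higher. Without MRL day 5 infarct replicate 3 alone the MRL count was 2, Col5a1 and Col5a2. For the fits without a single library the share of all probe sets is not given, so those counts have no background beside them.

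Markers of several other cell types moved with the collagens at day 5, but those of endothelium mostly did not. Beside the marker counts, 23.4% of all probe sets in C57 and 23.6% in MRL infarct tissue were called higher. Of 6 endothelium markers 0 rose and 1 fell in C57 infarct tissue, and 1 rose and 0 fell in MRL. Among fibroblast markers 8 of 9 on the array rose and 1 fell in C57 infarct tissue, and 7 rose and 1 fell in MRL, with median changes of 1.56 and 1.25. The gene that fell was Gsn, which encodes the actin-severing protein gelsolin (-1.40 ± 0.43 and -1.78 ± 0.40). The summed fibroblast markers ranged from 7074 to 7901 at day 0 and from 10225 to 13295 at day 5 in C57 infarct tissue, and from 8764 to 10835 and 8226 to 14180 in MRL. Of 6 tested smooth muscle and myofibroblast markers 3 rose and 1 fell in C57 infarct tissue, and 4 rose and 1 fell in MRL. Their sums went from 2042 to 2684 up to 7109 to 14002 in C57. In MRL the sums went from 1452 to 1692 up to 3697 to 11496. Among the markers that rose, Tagln, an actin-binding protein of contractile cells, did so by 3.53 ± 0.45 and 3.20 ± 0.42. All 7 macrophage markers rose in every strain and region, with sums of 395 to 512 at day 0 and 3057 to 7865 at day 5 in C57 infarct tissue, and 323 to 389 and 1277 to 10240 in MRL. Of 8 cardiomyocyte markers 6 fell in C57 and 7 in MRL infarct tissue, by a median of 1.20 and 1.31 on the log2 scale. Their sums fell from between 175112 and 188727 to between 74027 and 148402 in C57. Of the 4 cartilage and bone markers on the array only Sox9, a transcription factor, passed the filter, and it rose by 1.85 ± 0.34 and 2.12 ± 0.31. The means of Col2a1, Acan and Ibsp lay below the array medians in every group. The part of these cell types in the collagen changes was not tested.

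The genes that make, fix and remove collagen were counted as lists chosen with earlier results of these data known, so their direction is not independent evidence. Beside the list counts in infarct tissue, 23.4% of all probe sets in C57 and 23.6% in MRL were called higher at day 5. Of 22 tested genes of collagen synthesis and crosslinking, 19 rose in C57 and 18 in MRL infarct tissue at day 5, and 1 fell in MRL, Pcolce2 (-1.15 ± 0.44). The median changes were 2.10 and 1.87, against 0 and -0.05 for all probe sets. The crosslinking enzyme gene Lox rose by 8.07 ± 0.43 in C57 and 6.91 ± 0.39 in MRL, and its relatives Loxl3 (4.35 ± 0.55 and 3.39 ± 0.51) and Loxl1 (3.29 ± 0.35 and 4.07 ± 0.32) rose too. Lox was already higher at day 1, by 3.86 ± 0.43 and 3.13 ± 0.39, when no fibrillar collagen was called. So were Plod2, a lysyl hydroxylase gene (1.22 ± 0.31 and 1.00 ± 0.29), and Tgm2, a transglutaminase gene (1.25 ± 0.28 and 1.00 ± 0.26). In all, 4 of the 22 had risen at day 1 in C57 infarct tissue and 6 in MRL, and 0 had fallen in either. Of all probe sets 15.5% and 21.5% were called in either direction. The share called higher alone is not given, so whether these counts exceed it was not tested. The collagen chaperone gene Serpinh1 changed by -0.14 ± 0.49 and 0.42 ± 0.45 at day 1, not called, and rose by 2.06 ± 0.49 and 2.11 ± 0.45 at day 5.

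Of 21 fibril-associated collagens and fibril regulators 20 rose and 1 fell in C57 infarct tissue at day 5, and 18 rose in MRL, with medians of 3.18 and 3.07. The gene that fell was Tnxb (-2.13 ± 0.44 in C57, and -0.94 ± 0.41 in MRL, where it was not called), which encodes a tenascin. Tnc, another tenascin of wounds, rose by 7.47 ± 0.61 and 6.98 ± 0.56. Fn1, the fibronectin on which collagen fibrils are laid down, rose by 5.89 ± 0.59 and 6.33 ± 0.54, and Postn, the matricellular protein periostin, by 5.30 ± 0.29 and 5.26 ± 0.27. At day 1 this list was mixed, with 4 genes higher and 2 lower in C57 and 3 and 3 in MRL. Of all probe sets 15.5% and 21.5% were called in either direction then. Col14a1, a fibril-associated collagen, was lower in both strains then (-2.04 ± 0.48 and -1.53 ± 0.44), and at day 5 it was 4.09 ± 0.48 and 4.09 ± 0.44 above day 0.

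Among 13 tested genes of collagen degradation and its inhibitors 9 rose in C57 and 10 in MRL at day 5, with medians of 1.97 and 1.95. Timp1, an inhibitor of matrix metalloproteinases, rose by 7.32 ± 0.60 and 8.33 ± 0.56 at day 1 and by 8.24 ± 0.60 and 8.42 ± 0.56 at day 5. The membrane collagenase gene Mmp14 rose by 6.08 ± 0.54 and 5.64 ± 0.50 at day 5, and the collagen-cutting cathepsin gene Ctsk by 4.05 ± 0.73 and 5.80 ± 0.68. Of 21 genes of profibrotic signals 12 rose in C57 and 14 in MRL at day 5, with medians of 1.56 and 1.13, and 7 and 6 at day 1. The day 1 shares of all probe sets called in either direction were 15.5% and 21.5%. Tgfb1, a ligand that drives collagen transcription in fibroblasts, rose at day 1 by 1.54 ± 0.41 and 2.00 ± 0.38 and at day 5 by 2.16 ± 0.41 and 2.73 ± 0.38. Ltbp2 (7.24 ± 0.52 and 6.16 ± 0.48), Thbs1 (6.32 ± 0.58 and 5.41 ± 0.54) and Ccn2 (4.09 ± 0.27 and 3.32 ± 0.25), all secreted matrix proteins, were among the larger rises at day 5, with the ligand gene Tgfb3 (3.77 ± 0.51 and 3.44 ± 0.47). Ccn2 was already 3.92 ± 0.27 and 3.21 ± 0.25 above day 0 at day 1. Of the other fibrillar collagens only Col5a3, the third type V chain gene, passed the filter. It rose by 3.57 ± 0.64 in C57 and 3.08 ± 0.59 in MRL infarct tissue at day 5.

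**Figure D4:**
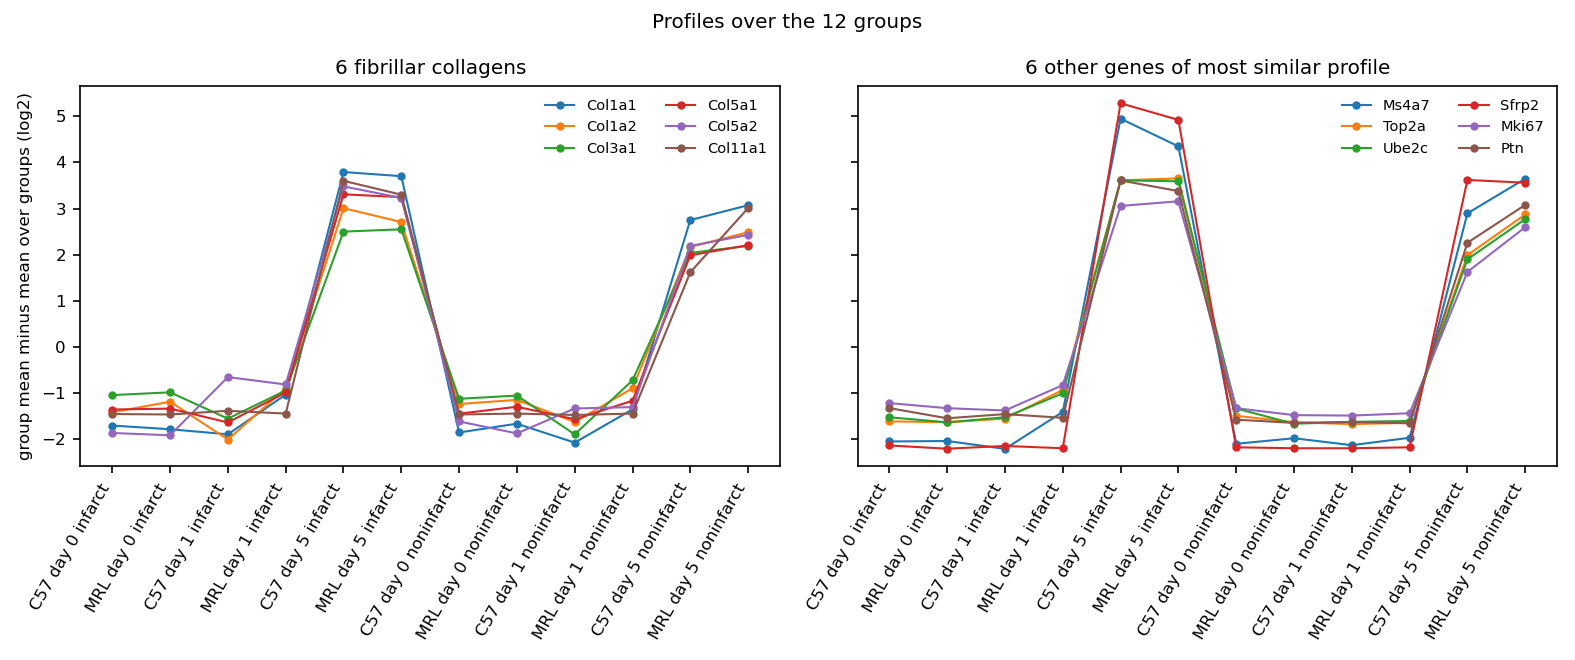
Group means of log2 intensity minus the mean over the 12 groups (vertical axis) for the 6 fibrillar collagens on the left and the 6 other genes of most similar profile on the right, over the groups (horizontal axis). In both panels the 8 day 0 and day 1 groups lie below 0 and the 4 day 5 groups above it.

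The members' group means followed each other closely. Over the 12 group means Pearson's r between 2 members ranged from 0.956 to 0.996, a description of 12 points that mostly reflects the step to day 5. Among 7754 other genes, 291 had an r above 0.95 with the members' mean profile. The 6 most alike were Ms4a7, a membrane protein gene of macrophages (r = 0.9986), Top2a, the topoisomerase gene of dividing cells (0.9964), Ube2c, a ubiquitin-conjugating enzyme gene of mitosis (0.9957), Sfrp2, a secreted Wnt modulator (0.9953), Mki67, a gene of dividing cells (0.9950), and Ptn, a secreted growth factor (0.9949). They were picked for this likeness, so their rise at day 5 is no result.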

How the data were processed

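Total RNA of 46 samples was labelled with biotin and hybridized to 1 array each. The authors deposited 1 linear intensity for each probe set, and the submitters' processing notes name GCRMA without a version. Genome builds and detection calls were not given in the sources used here. The 64 Affymetrix control probe sets of 22690 were dropped. Log2 was taken with no pseudocount (smallest value 1.03). Array medians of intensity lay between 18.6 and 22.3, and the number of arrays limits the precision. P-values measure the spread between these samples.

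Fits used limma 3.58.1 in R 4.3.3 (lmFit, eBayes, 1 mean per group, two-sided, Benjamini-Hochberg over the tested probe sets) in 28 comparisons. A region's 23 arrays were fitted together, and regions were compared on all 46. A probe set was tested if 3 or more arrays placed it above their own median. Every member and probe set is named. The other genes named are the 6 of most similar profile and, per list, up to 4 called genes with the largest changes; Pcolce2, Tnxb, Gsn, Plod2, Tgm2, Serpinh1, Col14a1, Tgfb1, and Lox, Timp1 and Ccn2 at day 1, and Col5a3 were also named after their values were seen. Members and lists were chosen with earlier results of these data known. The fits were tested on simulated data. Per-array differences of genes were compared by exact permutation tests.

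Same-numbered infarct and noninfarct arrays deviated together in all pairs of C57 day 0 and MRL day 1, but not in all pairs of any other group. Replicate numbers were therefore taken as names only. The region tests thus treat the pieces of tissue as independent, which pieces of the same heart would not be. The highest correlation between 2 arrays was 0.9967, and no array was a copy of another. Alternatives were no filter, an offset of 32, quantile normalization, centring, mean of probe sets, array weights, a replicate block, 1 fit of all arrays, and leaving out libraries.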

Additional observations from a re-analysis of the deposited data

Results flagged for a closer look

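In groups of 4 arrays, 60 gene and group combinations were screened for a single array far from the others, and 5 had one, where chance gives about 1 in 20. The library labelled MRL day 5 infarct replicate 3 was low for Col3a1 (13.00, against 14.11 to 14.19 in the other 3), Col5a1 (11.06, against 13.02 to 13.09) and Col5a2 (11.36, against 12.87 to 13.14). C57 day 5 infarct replicate 1 was low for Col11a1 (5.93, against 8.44 to 8.55), and its cardiomyocyte marker sum was 148402, against 74027 to 86867. MRL day 0 infarct replicate 4 was high for Col1a2 (10.19, against 10.04 to 10.05).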

How the results depend on the processing

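The 48 rises of the 6 genes at day 5 kept their calls under every alternative run. Those of Col11a1 are a description, because it passed the filter through day 5 arrays alone. Over 168 gene results and 3108 alternatives, 3054 kept their side of the threshold, 54 came to pass it, 0 lost a call and 0 called values reversed. Counts of 0 of 6 that changed are these. Without the 2 libraries that stood apart, 1 gene was called in C57 and 1 in MRL infarct tissue at day 1, 1 between strains in noninfarct tissue at day 5, and between regions at day 5, 5 in C57 and 3 in MRL. These 2 libraries were picked after seeing the data, as was C57 day 5 infarct replicate 1. Without all 3 libraries the counts were the same, 1, 1, 1, 5 and 3. With array weights they were 1, 1, 1, 4 and 4. Quantile normalization gave 1 in MRL infarct tissue at day 1. For array weights, quantile normalization and leaving out 1 replicate at a time the share of all probe sets is not given. Those counts therefore have no background beside them. With the replicate number as a block 5 genes were called between regions in C57 at day 5 (19.5% of all probe sets in either direction), and no other count moved. Leaving out 1 replicate at a time gave 0 to 1 in C57 and in MRL infarct tissue at day 1, between strains in infarct tissue at day 1 and in noninfarct tissue at day 5, 0 to 5 between regions in C57 and 0 to 2 in MRL at day 5, and no change elsewhere. The gene called against day 0 was Col5a2, in C57 without day 1 replicate 1 (1.55, limma adjusted p = 0.014) and in MRL without day 0 replicate 3 (1.28, 0.049) or day 1 replicate 3 (1.35, 0.025). Between strains it was Col1a2 at day 1 (1.40, 0.046, without MRL day 1 infarct replicate 3) and Col11a1 at day 5. The causes were not tested. Low signal limits Col11a1, whose day 5 changes ranged from 2.81 to 5.69 in C57 and from 2.80 to 6.06 in MRL infarct tissue over these alternatives.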
